A study of Mus musculus with 4 samples.

Results

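*Gpr64*, *Spink5*, *Slco2a1* and *Lect1* are 4 genes, of 12814 in the table, with high signals in epithelial cells of the newborn mouse inner ear that are not hair cells. They were chosen by symbol, for large ratios between the epithelial libraries of the cochlea and the vestibular system or between epithelial cells and hair cells. No numerical limit was set, and the ratios that chose them are given here as a description and without a test. Newborn mice of the C57BL/6 strain with the *Atoh1/nGFP* transgene were used, and their inner ears were dissociated and sorted by flow cytometry, so all groups come from carriers of the transgene. The nuclear green fluorescent protein it encodes marks hair cells (HCs), the mechanosensory cells of the ear. Epithelial cells were gated by their surface protein CD326, and the fluorescence split this gate into HCs and, where it was absent, epithelial non-sensory cells (ENSCs). Cochlear HCs, cochlear ENSCs, vestibular HCs and vestibular ENSCs gave 1 library each, from the pooled ears of several animals. The columns used here held no second library of any population, and without a spread between replicates no test was made.

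ENSCs are a mixture. Supporting cells touch and surround HCs, and other epithelial cells line the remaining walls of the cochlear duct and of the vestibular chambers, where they lay down extracellular matrix and regulate the ion content of the endolymph. The 4 genes encode proteins of the cell surface or the extracellular space. *Gpr64*, now named *Adgrg2*, is an adhesion G-protein-coupled receptor known from the ducts of the male reproductive tract, where it is needed for fluid reabsorption. *Spink5* encodes LEKTI, a secreted inhibitor with many Kazal-type domains that restrains kallikrein proteases in the epidermis and is mutated in Netherton syndrome. *Slco2a1* encodes the prostaglandin transporter, which takes prostaglandins into the cell for breakdown and is prominent in endothelium. *Lect1*, now named *Cnmd*, encodes chondromodulin, a cartilage glycoprotein that inhibits the growth of blood vessels.

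Promoter sequences are shown as a description, and the stretches differ in base composition and core elements. A link to the ENSC library in which a gene was high was not tested. RefSeq promoters (table on GRCm38.p6) were matched for 3 of the 4 genes, and *Spink5* had none. Each of the 3 was found once on its chromosome in the mm9 genome, which the deposited data use. The 250 bases before the transcription start are written 5′ to 3′ on the strand of the gene. Capitals mark TATAAA, the TATA box, and GGGCGG, the GC box, searched on both strands. The *Gpr64* stretch lies at chrX:156828372-156828621 on the plus strand, that of *Slco2a1* at chr9:102910567-102910816 on the plus strand and that of *Lect1* at chr14:80061991-80062240 on the minus strand.
Gpr64: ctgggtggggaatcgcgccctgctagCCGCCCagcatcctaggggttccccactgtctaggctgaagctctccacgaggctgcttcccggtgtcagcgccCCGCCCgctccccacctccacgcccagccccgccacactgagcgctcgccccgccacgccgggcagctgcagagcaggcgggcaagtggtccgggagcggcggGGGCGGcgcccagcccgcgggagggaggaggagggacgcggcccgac
Slco2a1: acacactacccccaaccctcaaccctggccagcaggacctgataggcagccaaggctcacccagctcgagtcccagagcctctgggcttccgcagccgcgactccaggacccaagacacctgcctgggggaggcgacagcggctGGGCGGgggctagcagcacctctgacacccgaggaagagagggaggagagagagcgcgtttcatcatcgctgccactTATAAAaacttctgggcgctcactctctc
Lect1: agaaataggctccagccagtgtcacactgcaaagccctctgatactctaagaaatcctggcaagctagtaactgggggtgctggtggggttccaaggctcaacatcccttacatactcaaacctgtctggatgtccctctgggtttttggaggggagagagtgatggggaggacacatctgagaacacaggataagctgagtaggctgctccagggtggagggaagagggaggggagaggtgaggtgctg

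The *Gpr64* stretch was 75.6% G and C, with 26 CG dinucleotides and 3 GC boxes. Among 27025 promoters of the same length, 9.24% held at least as many CG dinucleotides and 8.40% at least as many GC boxes. The *Slco2a1* stretch held 12 CG dinucleotides, 1 GC box and 1 TATA box that began 29 bases before the start. A TATA box was present in 13.0% of all promoters and a GC box in 32.9%. The *Lect1* stretch held neither element. It also held no CG dinucleotide, which 8.26% of promoters lacked. The GATA motif AGATAA and the SOX motif AACAAT, present in 10.3% and 9.65% of promoters, had no match on either strand in these 3 windows. These matches are descriptions of letters and not binding sites.

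The signals are read counts per gene that the authors quantile-normalized, which forces the same distribution on each library and leaves the sequencing depth unknown. A floor of 20 was applied. In 3 libraries low signals only followed the order of the signals elsewhere, up to 24.25 in cochlear HCs, 22.75 in cochlear ENSCs and 30.5 in vestibular HCs, and in vestibular ENSCs no such range was found above 20. Signals at or below these points are called tied, and a fold against a tied signal is a lower bound that takes the top of that library's range. The sort was checked on *Pou4f3*, an HC transcription factor, which went from 2199 to 55.25 between HCs and ENSCs of the cochlea and from 2489.5 to 20 in the vestibular system. All 10 HC markers listed were at least 3-fold higher in HCs of either organ, against 8.39% (cochlea) and 13.8% (vestibular system) of all genes. *Epcam*, which encodes CD326, stood at 1017 against 3376 in the cochlea and at 1139 against 7511 in the vestibular system.

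*Gpr64* was a gene of cochlear ENSCs. In the cochlea it had 2978 in ENSCs and 98.25 in HCs, against 33.5 in vestibular ENSCs and 38.75 in HCs there. The cochlear ENSC library stood far above the other 3, and cochlear HCs lay between it and both vestibular libraries. The ENSC libraries differed 88.9-fold (log2 ratio 6.47), and within the cochlea ENSCs exceeded HCs 30.3-fold (log2 ratio of HC to ENSC -4.92). In the vestibular system HCs and ENSCs were 1.16-fold apart, and both signals were low. Cochlear HCs exceeded vestibular HCs 2.54-fold (log2 ratio 1.34), less than the 3-fold used below to count genes. That log2 ratio was 0 with a floor of 100 and 0.51 with a pseudocount of 100.

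*Spink5* was likewise high in cochlear ENSCs, with less signal. It had 1569 there, and the other 3 libraries, at 24.25 (cochlear HCs), 30 (vestibular HCs) and 20 (vestibular ENSCs), were all tied. Only the cochlear ENSC library was thus above its tied range. It was at least 78.4-fold above vestibular ENSCs and at least 64.7-fold above cochlear HCs. No fold can be given between the vestibular libraries or between the HC libraries, where the gene was not detectable above the range.

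*Slco2a1* was the reverse of the preceding pair. It had 2817 in vestibular ENSCs but 29 in those of the cochlea, and both HC signals, 24.25 (cochlear) and 30 (vestibular), were tied. Vestibular ENSCs exceeded cochlear ENSCs 97.1-fold (log2 ratio of cochlear to vestibular ENSCs -6.60) and vestibular HCs at least 92.4-fold. In the cochlea ENSCs were at least 1.20-fold above HCs, at the low end of both libraries.

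*Lect1* did not mark the epithelium of either organ alone. Its signal was 5935 in cochlear ENSCs and 6452.5 in vestibular ENSCs, while HCs had 179.75 (cochlear) and 48.5 (vestibular). The ENSC libraries were 1.09-fold apart and both stood far above the HC libraries. ENSCs exceeded HCs 33.0-fold in the cochlea (log2 ratio of HC to ENSC -5.05), and the vestibular difference was 133-fold (-7.06). Cochlear HCs were 3.71-fold above vestibular HCs, so that most of the difference between organs in the HC to ENSC ratio (-2.01 on the log2 scale, vestibular minus cochlear) came from the HC libraries. With a floor of 100 the HC libraries were under 3-fold apart and the difference between organs was -0.97, and with a pseudocount of 100 it was -1.03. By its signals *Lect1* is a gene shared by the ENSCs of both organs.

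**Figure D1:**
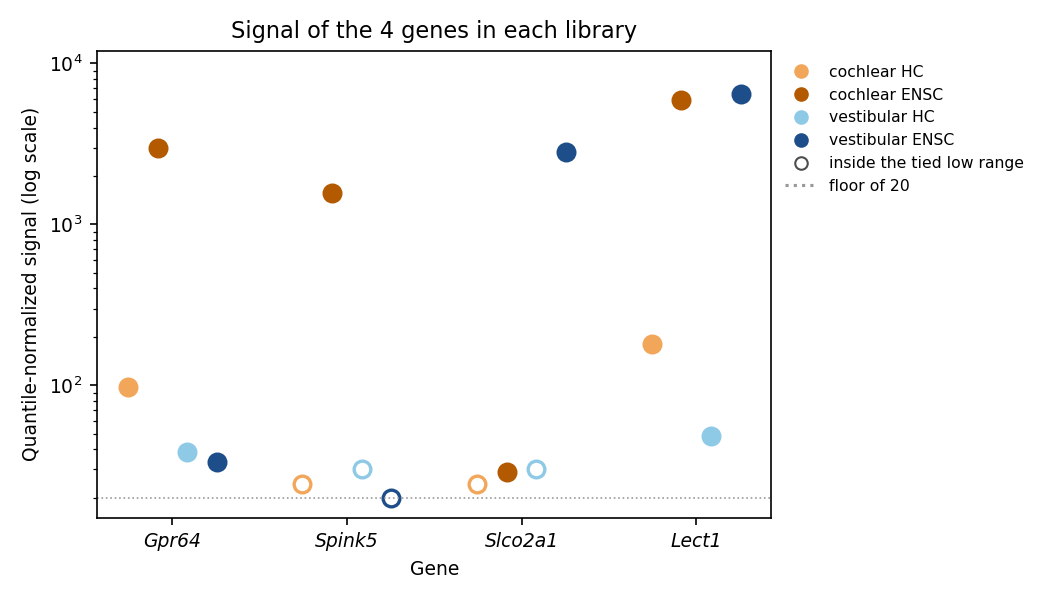
Quantile-normalized signal (log scale) of *Gpr64*, *Spink5*, *Slco2a1* and *Lect1* in the 4 libraries, 1 point per library with no replicate. Open points lie inside the tied low range of their library and the dotted line is the floor of 20. *Gpr64* and *Spink5* were high in cochlear ENSCs, *Slco2a1* in vestibular ENSCs and *Lect1* in both.

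In these bulk libraries a smaller share of cells with the transcript and less of it per cell cannot be told apart. Divided by exonic length, the cochlear ENSC level of *Lect1* was 3220 signal units per kb, followed by 564 for *Gpr64*, 328 for *Spink5* and 7.19 for *Slco2a1*. In vestibular ENSCs the levels per kb were 3501 for *Lect1*, 698 for *Slco2a1*, 6.35 for *Gpr64* and 4.18 for *Spink5*. With 1 library per population, neighbours in either order could not be separated by a replicate spread. By undivided signal, *Lect1* was at rank 138 of 12814 in cochlear and rank 120 in vestibular ENSCs. *Gpr64* was at rank 406 and *Spink5* at rank 945 in cochlear ENSCs, and *Slco2a1* at rank 435 in vestibular ENSCs.

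The same ratios were then set beside all genes of the table. Between the ENSC libraries 3 of the 4 genes were at least 3-fold apart, and so were 15.7% of all genes. These 3 were also at least 30-fold apart, as were 0.375% of genes. In the cochlea 3 of the 4 were at least 3-fold lower in HCs than in ENSCs (9.2% of all genes lower, 17.6% apart either way), each of them at least 30-fold (0.281% of genes). In the vestibular system 2 of the 4 were lower in HCs (14.3% of all genes lower, 28.1% apart either way), both at least 30-fold (0.437%). Of the 4 only *Lect1* was at least 3-fold apart between the HC libraries, with the cochlea higher, where 4.21% of all genes were higher, 5.09% lower and 9.3% apart either way. As the genes were chosen on such ratios, nothing is read from these counts. In the ranking of cochlear over vestibular ENSCs *Gpr64* and *Spink5* followed *Calb1* (log2 ratio 6.55) and preceded *Gata3* (6.14). In the opposite direction *Slco2a1* stood between *Sfrp5* (-7.07) and *Nox3* (-6.25). In the vestibular HC to ENSC ranking *Lect1* stood between a microRNA gene (-7.28) and *Ntn1* (-6.88).

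**Figure D2:**
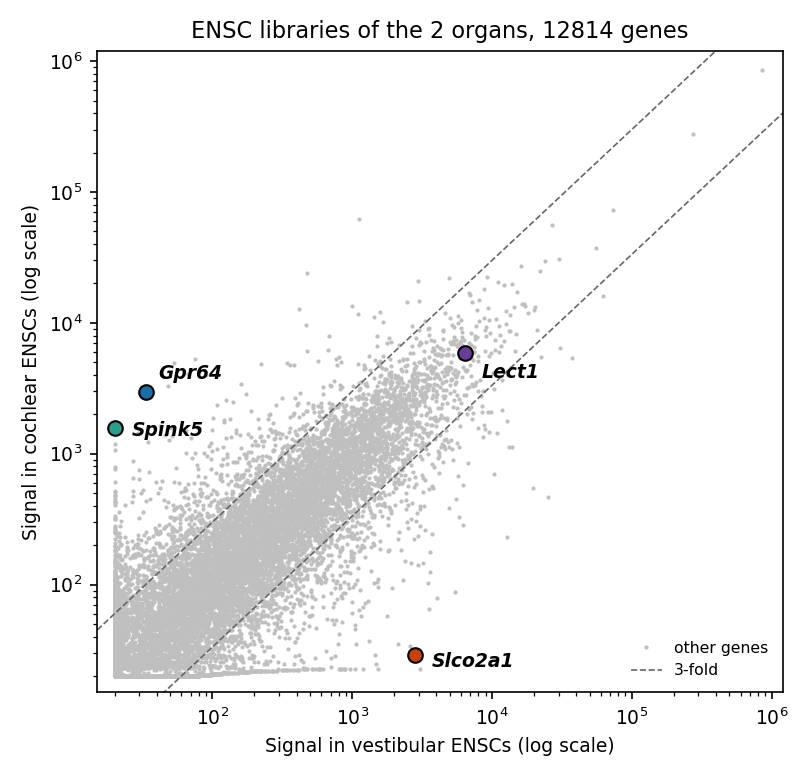
Signals of 12814 genes in vestibular ENSCs (x axis) and cochlear ENSCs (y axis), both on log scales, 1 grey point per gene, with dashed lines at a 3-fold difference. *Gpr64* and *Spink5* lie near the upper left edge of the cloud, *Slco2a1* near its lower right edge and *Lect1* on the diagonal among the most abundant genes.

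Both contrasts were also counted together. Cochlear ENSCs stood at least 3-fold above both vestibular ENSCs and cochlear HCs for 291 genes (2.27%), among them *Gpr64* and *Spink5*. The vestibular counterpart held 687 genes (5.36%), with *Slco2a1*. ENSCs stood at least 3-fold above HCs in both organs for 597 genes (4.66%), *Lect1* included, and for 443 of these (3.46% of all genes), again with *Lect1*, the ENSC libraries were under 3-fold apart.

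**Figure D3:**
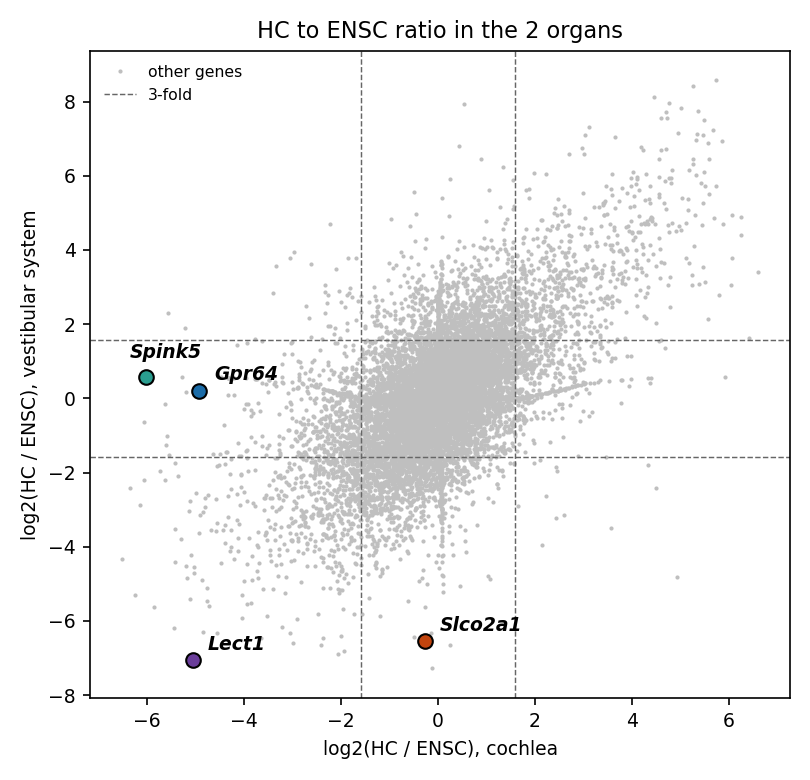
Log2 ratio of HC to ENSC signal in the cochlea (x axis) and in the vestibular system (y axis), 1 grey point per gene, with dashed lines at 3-fold. *Gpr64* (-4.92 and 0.21) and *Spink5* were at least 3-fold lower in cochlear HCs, *Slco2a1* in vestibular HCs and *Lect1* in both (-5.05 and -7.06). The vestibular position of *Spink5* rests on tied signals in both libraries.

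Some signal remained in HC libraries. Cochlear HCs held 3.30% of the ENSC signal of *Gpr64* and 3.03% of that of *Lect1*, and vestibular HCs 0.752% of the *Lect1* signal. Among the 261 genes with an ENSC signal of at least 1000 and at least 3-fold above HCs in the cochlea, the median HC signal was 17% of the ENSC signal over those above the tied range, and the lowest was 1.09%, for *Cldn11*. In the vestibular system the median over such genes was 14.7% and the lowest 0.643%. The part of ENSC RNA carried into the HC sort in these remainders was not tested.

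The positions and gene models of the 4 genes had little in common. In the mm9 genome *Gpr64* (ENSMUSG00000031298) lies on chromosome X, 156828622 to 156936002, in 30 separate exonic stretches that add up to 5278 nt. *Spink5* (ENSMUSG00000055561) lies on chromosome 18, 44122889 to 44182155, with 33 exonic stretches and 4789 nt. *Slco2a1* (ENSMUSG00000032548) lies on chromosome 9, 102910817 to 102990179, with 14 exonic stretches and 4035 nt. *Lect1* (ENSMUSG00000022025) lies on chromosome 14, 80037497 to 80061977, with 8 exonic stretches and 1843 nt, against a median of 3819 nt over the table. All stretches of 50 nt tested in their exons (397, 333, 340 and 150, in the same order) were found once in the genome, and stretches between these starts or across exon junctions were not searched. *Gpr64* shares 137 exonic nt with *Gm15241* on the opposite strand, and whether counting used the strand is not given in the sources used here.

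The exons of *Gpr64* and *Spink5* were poor in G and C, at 41.9% and 41.0% (median of all genes 48.8%), and those of *Slco2a1* were rich in them, at 54.8%. Log2 ratios of cochlear to vestibular ENSCs fell with GC content across 10475 genes (Spearman's rho = -0.453, as a description, since genes share the same libraries). The GC content of these 3 genes thus moved with their direction. After the trends on exonic length and GC content were taken out, the log2 ratios were 5.90 for *Gpr64*, 5.64 for *Spink5* and -6.01 for *Slco2a1*, in the same direction as before. *Lect1*, at 48.6%, had a corrected ratio of -0.18. Over all genes this correction changed the numbers at least 3-fold higher and lower from 999 and 1018 to 939 and 645 between the ENSC libraries, and from 1762 and 1837 to 1883 and 1296 between vestibular HCs and ENSCs.

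Genes next to them on the chromosome were set beside the 15.7% of all genes that were at least 3-fold apart between the ENSC libraries. Within 500 kb, 4 genes of the table lay around *Gpr64* and 9 around *Slco2a1*, and none of these was at least 3-fold apart between the ENSC libraries. *Phka2*, 4.10 kb from *Gpr64*, had 110.25 and 152.5 in cochlear and vestibular ENSCs. *Rab6b*, 24.2 kb from *Slco2a1*, had 88.25 and 132 in the same libraries. Around *Spink5* 1 of 5 genes was past 3-fold (*Gm9781*, log2 ratio 2.48), and the 6 other *Spink* genes annotated in that window were not in the table. Around *Lect1* 1 of 12 genes was past 3-fold (*Naa16*, 1.77). *Sugt1*, 7.93 kb from *Lect1*, had 289.75 and 175.75 in the ENSC libraries and 254.25 and 337.25 in the HC libraries. Of these 12 genes 1 was at least 3-fold lower in HCs than in ENSCs of both organs, as *Lect1* was (4.66% of all genes). It was *1190002H23Rik*, at 336 kb, with 25 against 478.75 in the cochlea and 67.5 against 211.5 in the vestibular system. *Pcdh8*, a protocadherin gene at 105 kb, went the other way, with 727.75 (cochlear HCs) and 461.5 (vestibular HCs) but 22.5 and 20 in the corresponding ENSCs. So did *Olfm4*, at 338 kb, with 223.5 and 708 in the HCs and the same ENSC signals as *Pcdh8*.

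Among 6726 protein-coding genes with a highest signal of at least 200, those with the most similar pattern were found by the distance between log2 signals over the 4 libraries, each centred on its gene's mean. For *Gpr64* these were *Fst* (distance 0.67), *Matn1* (1.13) and *Pappa2* (1.14), and the same genes came out for *Spink5*, in the order *Pappa2* (0.55), *Matn1* (0.96) and *Fst* (1.16). *Gpr64* and *Spink5* were themselves 1.23 apart. *Fst* encodes follistatin, an antagonist of activins, and had 1191 in cochlear ENSCs, at least 59.6-fold above vestibular ENSCs. *Matn1* encodes the cartilage protein matrilin and had 3298.5 and 47.75 in cochlear and vestibular ENSCs. *Pappa2* encodes a protease that cleaves binding proteins of insulin-like growth factors and had 1071.5 in cochlear ENSCs, at least 53.6-fold above vestibular ENSCs. Both vestibular signals of *Fst*, *Pappa2* and *Spink5* were tied, and so was *Spink5* in cochlear HCs. The likeness to *Spink5* thus rests mainly on the cochlear ENSC library.

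*Slco2a1* was closest to *Nox3* (distance 0.26), *Sfrp5* (0.40) and *Kdr* (0.82). *Nox3*, the oxidase needed to form the otoconia of the vestibular organs, had 2604 in vestibular and 34.25 in cochlear ENSCs. *Sfrp5*, which encodes a secreted Wnt antagonist, had 3054.5 in vestibular ENSCs and was tied in cochlear ENSCs, at least 134-fold apart. *Kdr* encodes a receptor for vascular endothelial growth factor and had 1462 in vestibular and 29 in cochlear ENSCs. Near the floor, equal signals of such genes reflect ties as described above, so that the likeness rests mainly on the vestibular ENSC library. *Lect1* was closest to *Lrp2* (1.08), which encodes the endocytic receptor megalin, to *Sema3c* (1.15), which encodes a secreted guidance protein, and to *Lmx1a* (1.17), a LIM homeodomain factor of the developing ear. *Lrp2* had 2918 against 102 in ENSCs and HCs of the cochlea and 5033 against 63.5 in the vestibular system. *Lmx1a* had 1611 and 2173 in the ENSCs and 37 in cochlear HCs, and was tied in vestibular HCs. The distances were larger for *Lect1* than for *Slco2a1*.

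**Figure D4:**
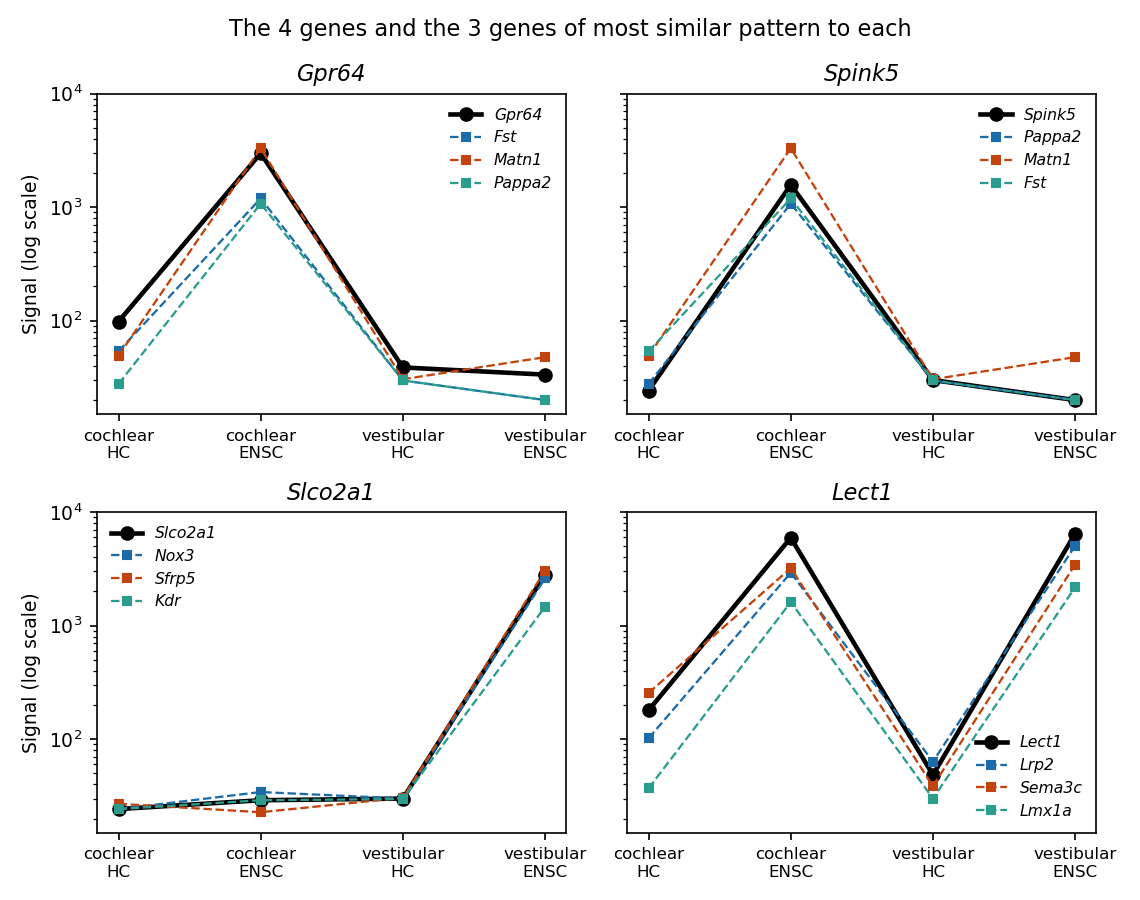
Signal (log scale) of each of the 4 genes (black) and of the 3 protein-coding genes with the most similar pattern (colours) in the 4 libraries, 1 value per library. *Fst*, *Matn1* and *Pappa2* were high in cochlear ENSCs together with *Gpr64* and *Spink5*, and *Nox3*, *Sfrp5* and *Kdr* in vestibular ENSCs together with *Slco2a1*.

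Families and partners of the 4 genes were then examined in lists, between the ENSC libraries unless stated, and the counts and medians take deposited signals as they are, tied ones included, and include the member itself. The median log2 ratio of all genes was 0 there, with 7.8% at least 3-fold higher and 7.94% at least 3-fold lower in cochlear ENSCs. Of 31 adhesion G-protein-coupled receptors 13 were in the table, and *Gpr64* was the only one of them at least 3-fold higher in cochlear ENSCs. The 3 that were at least 3-fold lower were *Gpr126*, with 2097 and 9427 in cochlear and vestibular ENSCs, *Celsr1*, with 234.5 and 918.75, and *Bai2*, at least 4.47-fold. The median over the 13 was -0.91, and after length and GC correction it was -0.35 with 2 genes past 3-fold in place of 4. *Gpr98*, the large receptor of the stereociliary ankle links, was an HC gene instead, with 3285 in HCs and 87.5 in ENSCs of the cochlea and 1914 and 191.5 in the vestibular counterparts.

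Genes of fluid and ion transport were listed because of the role of *Gpr64* in reabsorbing ducts. Of the 25 genes present, out of 36, 2 were at least 3-fold higher and 7 lower in cochlear ENSCs (median -0.32), and with a floor of 100 the number past 3-fold was 5 in place of 9. *Atp6v1b1*, which encodes a subunit of the proton pump, had 323 in cochlear ENSCs, at least 16.1-fold above vestibular ENSCs. The sodium channel subunit gene *Scnn1b* was at least 7.70-fold and *Bsnd*, which encodes barttin, at least 4.56-fold higher in vestibular ENSCs. *Cftr*, the chloride channel that works with *Gpr64* in the efferent ducts, had 49.25 and 33.75 in cochlear and vestibular ENSCs and was at the floor in both HC libraries.

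For *Spink5*, 16 of 29 genes with Kazal-type or follistatin-like modules were in the table, and 3 were higher and 3 lower in cochlear ENSCs (median 0.51). Next to *Spink5* and *Fst* the third was *Spock1*, a testican gene with 3220 and 619.5 in cochlear and vestibular ENSCs. *Agrn*, which encodes the basement membrane protein agrin, had 964.25 and 4169. Across the same list HCs were at least 3-fold below ENSCs for 10 of the 16 genes in the cochlea, and for 8 of them in vestibular cells (9.2% and 14.3% of all genes). In these contrasts 3 and 5 of 9 mesenchymal and fibroblast markers were also lower in HCs, and 1 was higher in each. Of 9 glial markers 7 and 4 were lower and 0 higher. The part of such cells in the signals of this list was not tested. The proteases that LEKTI inhibits in skin were nearly missing. Of 12 kallikrein genes listed only *Klk8* was in the table, at 31.5 in vestibular ENSCs and at the floor elsewhere. Of the 16 epithelial serine proteases and inhibitors in the table, 1 was higher in cochlear ENSCs, the inhibitor gene *Serpinb5* (522.5, at least 26.1-fold). Those lower were *St14*, which encodes matriptase (114.25 and 564.75 in cochlear and vestibular ENSCs), its partner *Prss8* (145.75 and 556), and the inhibitor genes *Slpi* (at least 3.99-fold) and *Spint2* (360.5 and 1092). The median of this list was -0.47, and 0.01 after length and GC correction, when 3 of its genes were past 3-fold in place of 5. Stratified epithelium, where *Spink5* is best known, was represented by 5 of 18 markers, of which 1 was at least 3-fold higher and 2 lower in cochlear ENSCs. *Krt10*, a keratin gene of the upper epidermis, was the one that was higher, with 270.5 against 45.25 in vestibular ENSCs (5.98-fold). *Krt5* and *Krt14* were not in the table. *Pkp1* and *Dsp*, genes of desmosomes, were at least 38.1-fold and 4.61-fold higher in vestibular ENSCs. The summed signal of this list was 1233.5 in cochlear ENSCs, where *Spink5* was high, and 4707 in vestibular ENSCs, where *Dsp* (3152) and *Pkp1* (867.75) held most of it.

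For *Slco2a1*, 17 of 29 prostaglandin genes were in the table, and 2 were higher and 5 lower in cochlear ENSCs (median 0.06, and -0.46 after length and GC correction), and with a floor of 100 the number past 3-fold was 4 in place of 7. Along the pathway *Pla2g4a*, the phospholipase that releases arachidonic acid, had 1485 and 281 in cochlear and vestibular ENSCs. The cyclooxygenase gene *Ptgs1* had 43 and 417.25, and *Ptgs2* had 24.75 and 23.75 in the ENSCs against 474.25 in vestibular HCs. *Ptgds*, which makes prostaglandin D2, had 250.75 and 2149, and *Ptges*, which makes prostaglandin E2, was at least 4.79-fold higher in vestibular ENSCs. *Ptges3*, also on the list, had 1325 and 1269.5 in cochlear and vestibular ENSCs, and 562.5 and 7095 in the corresponding HCs. *Hpgd*, the enzyme that breaks down imported prostaglandins, went the other way to the transporter, with 109.75 in cochlear and 25.75 in vestibular ENSCs. Export by *Abcc4* was at 41.75 and 200.5. Among receptors *Ptger4* had 76.5 and 46 in the ENSCs and 274.5 in vestibular HCs. Of the organic anion transporters of the same family 5 of 15 were in the table. Of these 1 was higher and 3 were lower in cochlear ENSCs by the deposited signals (median -1.69, and -0.39 with a floor of 100). *Slco5a1* was the one high in the cochlea, with 1577 against 50.5. *Slco1a5* had 239.5 and 823.5, and *Slco1c1*, the third counted as lower, was tied in cochlear ENSCs (20 against 64.75), with a bound of at least 2.85-fold that is under the threshold.

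*Slco2a1* is also an endothelial gene, so markers of endothelium were counted. Only *Kdr* and *Flt1* of 16 were in the table, and *Pecam1*, *Cdh5*, *Tek* and *Tie1* were not. *Flt1* was at the floor in vestibular ENSCs, where *Slco2a1* and *Kdr* were high, and had 130 in cochlear ENSCs. The sums of this pair were 46.25 (HCs) and 159 (ENSCs) for the cochlea, with 54.75 and 1482 for the vestibular counterparts, of which *Kdr* held nearly all. Of all 10 ligands and receptors of this growth factor, 2 were higher and 1 lower in cochlear ENSCs (median 0.15, and 1 past 3-fold with a floor of 100), and the ligand gene *Vegfa* had 922.5 and 1860 in cochlear and vestibular ENSCs.

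For *Lect1*, 22 of 32 cartilage genes were in the table. In the cochlea 14 of them were at least 3-fold lower in HCs than in ENSCs, and in the vestibular system 15, with median log2 ratios of -2.59 and -2.68. Over all genes 9.2% and 14.3% were lower, with medians of 0 and -0.0045. In the same contrasts the 9 markers of mesenchyme and fibroblasts summed to 1545 in HCs against 16396 in ENSCs of the cochlea, and to 430.5 against 2324.5 in vestibular cells. HCs were at least 3-fold below ENSCs for 3 of these 9 in the cochlea, and for 5 in vestibular cells, while *Pdgfra*, a receptor gene of mesenchymal cells, was higher in HCs of both organs (481.75 against 54.25, and 162.75 against 47.75). *Lum* held 12731 of the cochlear ENSC sum. For the 9 glial markers the numbers lower in HCs were 7 and 4, and for the 16 epithelial markers they were 10 and 12. The part of such cells in the signals of *Lect1* and the cartilage genes was not tested. *Col2a1*, the main collagen of cartilage, which ear epithelium also makes, had 5439 in ENSCs and 977.75 in HCs of the cochlea, and 22405 and 399.75 in those of the vestibular system. *Col9a1* had 8876 and 1070 in the cochlear pair and 21040.5 and 1707 in the vestibular pair. *Acan* and *Comp*, genes of mature cartilage, were not in the table. Between the ENSC libraries 3 cartilage genes were higher and 6 lower in the cochlea, with *Matn1* and *Epyc* (62028.5 and 1119) at one end and *Matn4* (25.5 and 442.25) and *Fmod* (24.75 and 384.75) at the other. Of 10 genes whose proteins share the BRICHOS domain with chondromodulin 5 were in the table, 1 higher and 1 lower in cochlear ENSCs. *Itm2a* had 2659.5 and 391 in cochlear and vestibular ENSCs, *Itm2c* 192.25 and 1371, and *Itm2b* 7815 in both. *Tnmd*, the closest relative of *Lect1*, had 36.5 in cochlear ENSCs and was at the floor elsewhere.

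**Figure D5:**
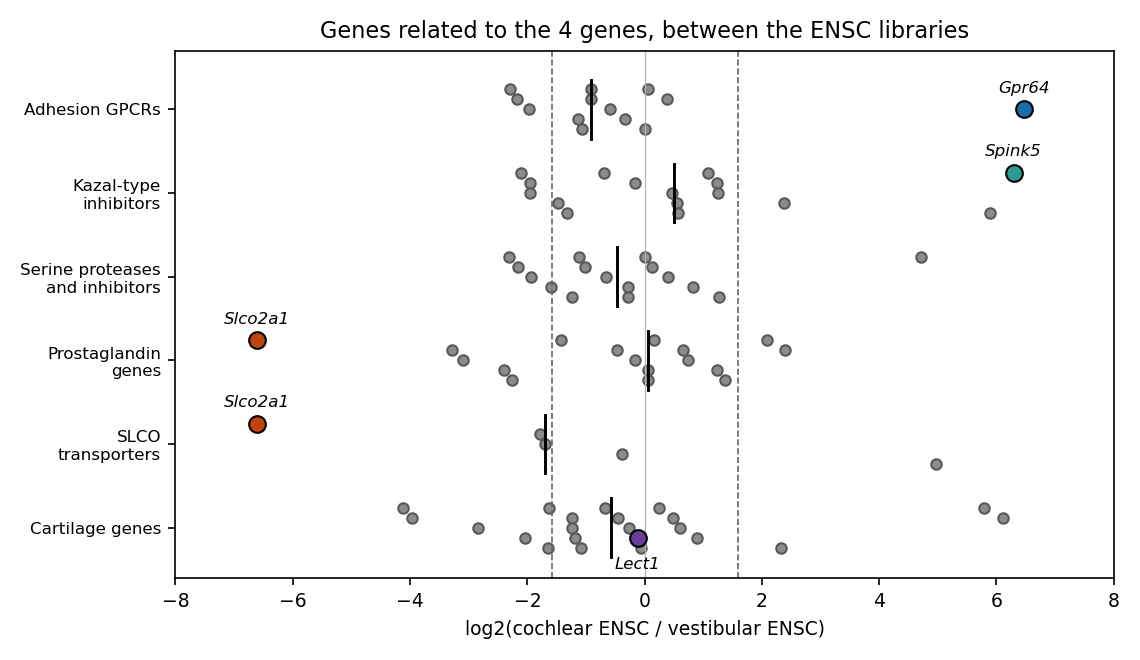
Log2 ratio of cochlear to vestibular ENSCs for the genes in the table from 6 lists, 1 point per gene, with a black bar at the list median and dashed lines at 3-fold. *Gpr64*, *Spink5* and *Slco2a1* lie at the far ends of their lists and *Lect1* near 0.

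Markers of other cell types were compared between the ENSC libraries by list. Of the mesenchymal and fibroblast markers 9 of 16 were in the table, and *Pou3f4* and *Twist1* were not. Their summed signal was 16396 in cochlear and 2324.5 in vestibular ENSCs, most of it from *Lum* (12731 and 413.75). Of the 9, 3 were at least 3-fold higher and 2 lower in cochlear ENSCs, the library in which *Gpr64* and *Spink5* were high. The list median was -0.26, opposite in sign to the sums, and 0 with a floor of 100. Epithelial markers, all 16 of them in the table, summed to 12901.5 and 31600.5 in cochlear and vestibular ENSCs, and 6 were at least 3-fold lower in cochlear ENSCs. Glial markers (9 of 12) summed to 3791 and 4530, although 3 were at least 3-fold higher and 1 lower in cochlear ENSCs and their median was 0.87, opposite in sign to the sums. With a floor of 100 the glial median was 0, and 2 were past 3-fold. Neuronal markers (7 of 12) summed to 5350 and 459.5, with *Isl1* holding 4976 of the former. Of the 7, 4 were higher and 0 lower in cochlear ENSCs (median 1.94). With a floor of 100 their median was 0, and 1 was past 3-fold. The neuronal markers summed to more in HCs, 9709 (cochlear) and 10268 (vestibular). Against ENSCs, 3 of the 7 were at least 3-fold higher in cochlear HCs and 5 in vestibular HCs (8.39% and 13.8% of all genes). Melanocyte markers (3 of 11) summed to 848.25 and 843.25, and blood and immune markers (2 of 12) to 41 and 44.75. The part of other cell types in the signals of *Gpr64*, *Spink5* and *Slco2a1* was not tested.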

How the data were processed

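Per the labels, RNA of sorted inner-ear cells was amplified with NuGEN Ovation in 4 samples, grouped by source name. The authors aligned reads, cut to their first 50 nt, to mm9 with TopHat, counted them per ENSEMBL gene with HTSeq and kept genes with at least 20 reads. The deposited signal is these counts after quantile normalization over the 4 columns with a floor of 20. Tool versions, annotation release and strand setting are not given in the sources used here. The non-HC columns were matched to the ENSC samples by title. Quantile normalization removes depth and overall shifts, so depth is unknown and no counting interval is given. Gene models were from GENCODE for NCBIM37 (mm9), which held 12799 of the 12814 identifiers, and 240 missing or altered symbols were taken from it.

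The members, gene lists and alternatives were chosen with earlier results of these data known. The design text speaks of triplicates, but with 1 column per group no test was possible: log2 ratios were taken without a pseudocount, and genes with ratios of 3 or more in either direction were counted. A tied low range ended where the median of the genes' highest signal elsewhere fell below 0.5 of that 1 step lower, provided that it had risen until then (rank correlation of at least 0.9). Named were the 4 genes, the 3 genes of most similar pattern to each, genes within 500 kb, adjacent genes in the rankings, and per list up to 4 genes of largest ENSC ratio and direct partners. A gene that this rule selects in the fluid and ion transport list is not reported here. *Gpr98*, *Ptgs2*, *Ptges3*, *Ptger4*, *Abcc4*, *Vegfa*, *Spint2*, *Lum*, *Isl1*, *Pdgfra* and *Col9a1* were chosen after their values were seen. Stretches of 50 nt, every 10 nt, were searched exactly on both strands. Alternatives were floors of 50 and 100, pseudocounts of 20 and 100, thresholds of 2 and 5, protein-coding genes, genes reaching 100 in 1 library, median centring, tied ranges set to their top, and a length and GC correction (local regression, span 0.3, 2 robust iterations). The ratio script was tested on simulated data. Python 3.11.15, pandas 2.3.3, scipy 1.17.1 and statsmodels 0.14.6 were used.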

Additional observations from a re-analysis of the deposited data

Results flagged for a closer look

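*Gpr64* was lower in HCs than in ENSCs of the cochlea (log2 ratio -4.92) and slightly higher in HCs than in ENSCs of the vestibular system (0.21), a difference of 5.13 on the log2 scale. It is listed because the single libraries of the 2 organs went in opposite directions. The difference was not tested, since each population had 1 library, both vestibular signals were low (38.75 and 33.5), and the vestibular ratio was -0.37 after length and GC correction.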

How the results depend on the processing

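With 1 library per population, no library could be left out and no paired analysis was possible because no population had a second library. The numbers of the 4 genes past the threshold between the ENSC libraries and within each organ were 3, 3 and 2 under all 11 alternatives, and no ratio past 3-fold changed sign. Between the HC libraries *Lect1* was the 1 gene counted. That count was 0 with a floor of 100, with pseudocounts of 20 and 100 and with a threshold of 5, and 2 with a threshold of 2. The difference between organs in the HC to ENSC ratio of *Lect1*, -2.01, was -0.97 with a floor of 100 and -1.03 with a pseudocount of 100, and that of *Gpr64*, 5.13, was 4.01 with the latter. The vestibular ratio of *Gpr64*, 0.21, was -0.37 after length and GC correction. Over all alternatives log2 ratios between the ENSC libraries ran from 4.53 to 6.47 for *Gpr64*, from 3.80 to 6.29 for *Spink5* and from -6.63 to -4.50 for *Slco2a1*. Cochlear HC to ENSC ratios ran from -4.95 to -3.96 for *Gpr64*, from -6.04 to -3.75 for *Spink5* and from -5.06 to -4.43 for *Lect1*. Vestibular ones ran from -6.55 to -4.49 for *Slco2a1* and from -7.06 to -5.46 for *Lect1*.

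Counts of all genes at least 3-fold apart, 2017 between the ENSC libraries, 2254 in the cochlea, 3599 in the vestibular system and 1192 between the HC libraries, moved with low signals and thresholds. In that order they were 967, 1087, 1872 and 433 with a floor of 100, 659, 800, 1402 and 278 with a pseudocount of 100, 4426, 4342, 6159 and 2690 at a threshold of 2, and 804, 1095, 1816 and 439 at a threshold of 5. A pseudocount of 20 gave 1338 between the ENSC libraries and 690 between the HC libraries, and a floor of 50 gave 687 between the latter. The genes of most similar pattern were the same with a highest signal of at least 1000. Pearson correlation, which ignores the size of a change, gave other genes for *Gpr64*, *Spink5* and *Lect1* and kept only *Kdr* for *Slco2a1*. With a floor of 100 the numbers of list genes past 3-fold between the ENSC libraries went from 9 to 5 for fluid and ion transport, from 7 to 4 for prostaglandin genes, from 3 to 1 for the vascular growth factor genes, from 2 to 1 for endothelial, from 4 to 2 for glial and from 4 to 1 for neuronal markers.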
